A study of Mus musculus with 6 samples.

Results

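The genes described are Fhl1, Vcl, Cnn1, Cnn2, Smtn, Myh9 and Myl6, which encode parts of the contractile apparatus of smooth muscle and of the actin cytoskeleton. The genes were chosen with earlier results of these data known. Probes were taken by symbol: every probe whose platform annotation gives 1 of these 7 symbols was used. This gave 8 of 8734 probes, 2 for Cnn2 and 1 for each other gene, out of 5755 genes with a probe of their own. All 8 probes had a value on all 6 arrays, none lay at the floor of the table, and all 7 genes passed the filter on missing values.

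The study compared cultured murine airway smooth muscle cells from mice with a transgene for the beta2-adrenergic receptor, which raises its expression and is labelled 2AR-OE or TG+, with cells of nontransgenic mice, labelled NTG. Cells of both genotypes grew out of tracheal explants in medium with 20% serum, RNA was taken between passages 8 and 10, and no agonist is named. Each of the 6 arrays hybridised transgenic against nontransgenic RNA, with transgenic RNA in Cy3 on the swapped arrays 1C and 2C and in Cy5 on the other 4, which are 2A, 2B, 1A and 1B. Arrays that share the number in their title are called a set here, and what the number stands for is not given. The labels give neither the promoter and receptor species of the transgene, nor the age of the mice, nor how many cultures or animals stand behind an array, so the p-values take in only how arrays vary, and that variation may be technical. The labels put over 90% of such cells as smooth muscle by staining for smooth muscle alpha-actin. The arrays hold ratios and no levels, so cell identity could not be read from them; Acta2, Tagln, Myh11 and Des were not analysed here.

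Smooth muscle shortens when myosin filaments pull on actin filaments that are anchored at dense bodies and at adhesion plaques of the membrane. Vinculin, with talin and paxillin, ties actin to integrins at these plaques. Calponins and smoothelin bind the actin filament, and myosin heavy and light chains form the motor. Many of these genes carry CArG boxes, the sequences bound by serum response factor, which drives both contractile and cytoskeletal genes. In culture, and above all after passaging, airway smooth muscle cells tend to lose contractile proteins. Beta2-adrenergic receptors relax this muscle through cyclic AMP.

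Promoters are shown for the CArG box, which the choice by symbol did not use and which some of the genes have and others do not. RefSeq windows of GRCm38.p6, 250 bases before to 50 bases after a start, were found for all 7 genes, 9 windows in all. A CArG box, searched by its consensus on both strands, which read alike, stood in a window of Fhl1, Vcl, Cnn2 and Myl6. That was 4 of 7 genes (57.1%), against 4 of 30 other contractile and cytoskeletal genes with a window (13.3%; Fermt2, Fhl2, Ldb3 and Srf). Among all 27025 genes with such a window 1.81% had one, and 1.63% of the 32851 windows. The 4 windows with a match are printed 5′ to 3′ with the CArG box in capitals, followed by the window of Cnn1, in which the consensus was not found. Counted from the start, with -1 as the base before it, the box began at -102 in Fhl1, -227 in Vcl, -56 in Cnn2 and -50 in Myl6. Binding was not measured, and a match or its lack says only which letters are there.

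Fhl1, chrX:56779433-56779732, plus strand: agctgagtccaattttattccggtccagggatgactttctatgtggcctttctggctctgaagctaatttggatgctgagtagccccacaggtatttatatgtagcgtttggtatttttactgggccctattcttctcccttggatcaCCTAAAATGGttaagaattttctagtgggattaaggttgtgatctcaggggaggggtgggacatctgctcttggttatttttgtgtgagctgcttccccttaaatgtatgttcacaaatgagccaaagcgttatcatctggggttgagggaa
Vcl, chr14:20929148-20929447, plus strand: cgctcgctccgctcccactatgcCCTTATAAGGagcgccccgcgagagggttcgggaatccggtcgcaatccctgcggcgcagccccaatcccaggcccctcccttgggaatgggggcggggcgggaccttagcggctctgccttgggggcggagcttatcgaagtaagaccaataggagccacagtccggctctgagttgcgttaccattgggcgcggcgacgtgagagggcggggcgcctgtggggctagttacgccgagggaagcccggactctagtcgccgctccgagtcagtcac
Cnn2, chr10:79988350-79988649, plus strand: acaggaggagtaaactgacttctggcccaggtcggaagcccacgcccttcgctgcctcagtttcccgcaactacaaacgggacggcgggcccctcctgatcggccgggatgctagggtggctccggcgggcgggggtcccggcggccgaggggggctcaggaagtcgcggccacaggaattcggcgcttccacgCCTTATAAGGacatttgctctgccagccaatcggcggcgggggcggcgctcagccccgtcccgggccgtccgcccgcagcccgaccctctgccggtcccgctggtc
Myl6, chr10:128492960-128493259, minus strand: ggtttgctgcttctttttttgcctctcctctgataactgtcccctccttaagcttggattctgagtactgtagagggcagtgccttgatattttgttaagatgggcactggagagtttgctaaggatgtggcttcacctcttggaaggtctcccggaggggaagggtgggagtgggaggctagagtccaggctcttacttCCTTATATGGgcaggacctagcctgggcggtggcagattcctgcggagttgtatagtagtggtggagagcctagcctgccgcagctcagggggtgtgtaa
Cnn1, chr9:22099003-22099302, plus strand: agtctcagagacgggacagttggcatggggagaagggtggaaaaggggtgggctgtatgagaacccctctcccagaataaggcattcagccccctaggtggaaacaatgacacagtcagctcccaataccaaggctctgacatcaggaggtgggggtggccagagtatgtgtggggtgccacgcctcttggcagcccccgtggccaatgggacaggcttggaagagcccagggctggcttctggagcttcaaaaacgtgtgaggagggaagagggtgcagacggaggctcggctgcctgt

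The values that follow are log2 ratios, likely transgenic over nontransgenic, because the transgenic cells are the condition under test and their RNA, in Cy5, fills channel 1 of the unswapped arrays. Those arrays' titles name nontransgenic RNA first, and no file states the direction. If it is the reverse, every sign here turns. The columns of arrays 1C and 2C were read as turned to the common direction before deposit. If they were not, a call would stand for a dye effect. Of 47 probes beyond 2-fold and of 1 sign on all 4 unswapped arrays, 40 had that sign on both swapped arrays and 6 the opposite sign on both. Over all probes the arrays agreed less across orientations (Spearman rho 0.03 to 0.26 for the 8 pairs) than among the 4 Cy5 arrays (0.38 to 0.77), and the swapped arrays correlated at 0.30; probes are not independent replicates. Array 1C scattered most, with a standard deviation of 1.04 over its probes against 0.47 to 0.61 on the other arrays. Errors are standard errors of the limma fit, n = 6 arrays unless stated. The fit holds a dye term. In a fit of 1 set this term takes up the swapped array wholly, so of the set's arrays only those in Cy5 enter the error. A call is a Benjamini-Hochberg adjusted p under 0.05 over all 6807 rows fitted.

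Transgenic cells had higher ratios of Fhl1, Vcl and Cnn1: 3.04-fold for the LIM protein, 2.23-fold for vinculin and 1.51-fold for calponin 1. Cnn2, Smtn, Myh9 and Myl6 were not called. Thus 3 of 7 genes rose and 0 fell, where 7.11% of all 6807 rows were called in either direction, 4.03% as higher and 3.09% as lower. Because the genes were chosen with earlier results of these data known, their counts are no test against the shares of all rows. The same 3 genes, and no others of the 7, were above 0 on all 6 arrays, which 11.2% of the 6756 rows with 6 values were. With every probe tested alone 3 of the 8 probes were called, those of Fhl1, Vcl and Cnn1, against 604 of 8500 probes (7.11%), which belong to 559 rows. The median over the 7 genes was 0.40, and over all rows 0.0018. In such mixed RNA, fewer cells of a type and less RNA per cell cannot be told apart.

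**Figure D1:**
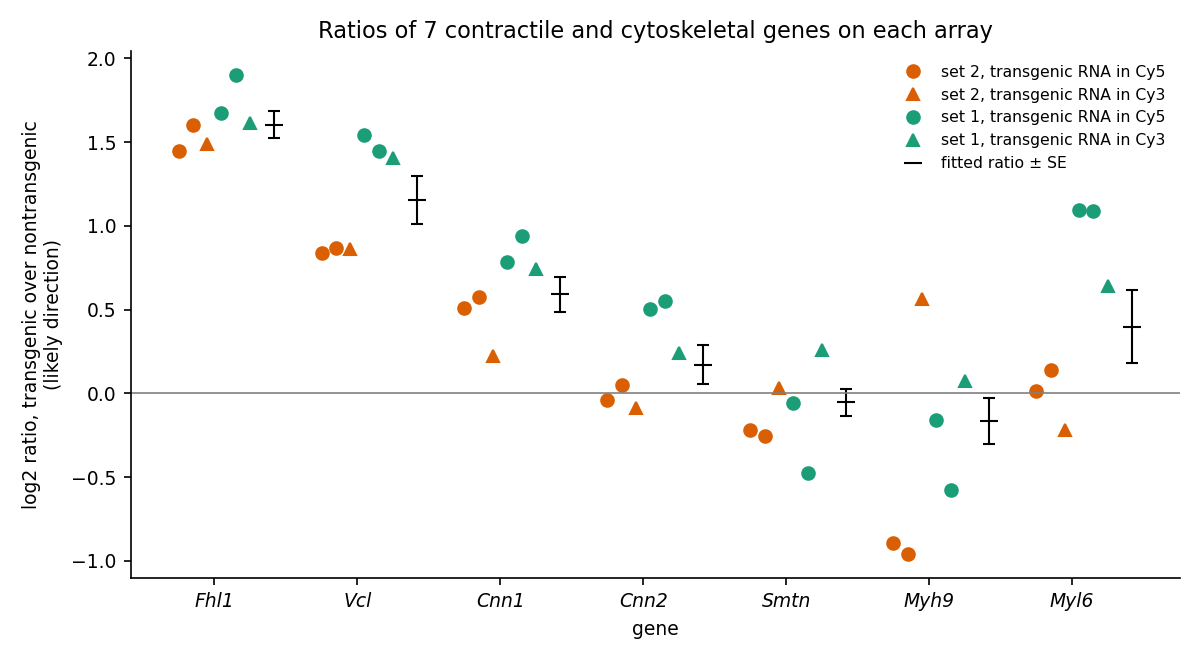
Each point is the log2 ratio of 1 gene (x axis) on 1 array (y axis, likely transgenic over nontransgenic), coloured by set and shaped by the dye of the transgenic RNA; black bars are fitted ratios ± SE. Fhl1, Vcl and Cnn1 lie above 0 on all 6 arrays, and Smtn and Myh9 lie below 0 on the 4 Cy5 arrays and above 0 on the swapped ones.

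Fhl1 encodes a protein made almost wholly of LIM zinc-binding domains that is abundant in muscle. Its ratio was 1.45, 1.60 and 1.49 on arrays 2A, 2B and 2C, and 1.67, 1.90 and 1.62 on arrays 1A, 1B and 1C. The arrays thus lay close together, and the highest value of set 2 fell just short of the lowest of set 1. The fitted ratio was 1.61 ± 0.08 (adjusted p = 0.00172, higher on 6 of 6 arrays), the 14th highest of 6807 rows. Its standard deviation between arrays was 0.16, where the median row had 0.29. The call held without any single array (1.56 to 1.64, adjusted p 0.00182 to 0.0210), in set 2 alone (1.51 ± 0.06) and in set 1 alone (1.70 ± 0.08).

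Vcl encodes vinculin, the adhesion plaque protein that couples talin to actin. Its ratio was 0.84, 0.87 and 0.86 on arrays 2A, 2B and 2C, and 1.54, 1.45 and 1.41 on arrays 1A, 1B and 1C. All 6 values were high, but the sets did not overlap, while within each set the swapped array stood beside the other 2. The fitted ratio was 1.15 ± 0.14 (adjusted p = 0.0110), the 53rd highest. Fitted by set it was 0.86 ± 0.04 in set 2 (1.81-fold) and 1.45 ± 0.06 in set 1 (2.74-fold). Without array 1C the ratio was 1.02 ± 0.17 and the call was lost (adjusted p = 0.0568).

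Cnn1 encodes calponin 1, an actin-binding inhibitor of the myosin motor that marks differentiated smooth muscle. Its ratio was 0.51, 0.58 and 0.22 on arrays 2A, 2B and 2C, and 0.79, 0.94 and 0.74 on arrays 1A, 1B and 1C. Set 1 was again the higher, without overlap, and the swapped array 2C the lowest of all. The fitted ratio was 0.59 ± 0.10 (adjusted p = 0.0280, higher on 6 of 6 arrays), at rank 368 of 6807. This is the least firm of the 3 calls. With limma's array weights it was lost (adjusted p = 0.0864). It was lost without 1A, 1B, 2A, 2B or 1C (adjusted p 0.0682 to 0.105) and with a random replicate block for the set (adjusted p = 0.0602), and held without 2C (0.72, adjusted p = 0.0107).

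Cnn2 encodes calponin 2, the form found in smooth muscle and in many other cells. The mean of its 2 probes was -0.04, 0.05 and -0.09 on arrays 2A, 2B and 2C, and 0.51, 0.55 and 0.24 on arrays 1A, 1B and 1C. Ratios were thus near 0 throughout set 2 and positive throughout set 1. The fitted ratio of 0.17 ± 0.12 did not pass (adjusted p = 0.364). Its probes gave 0.24 ± 0.13 and 0.11 ± 0.10 when tested singly, neither of them called. The sets were apart for the first probe, while for the second array 1C (0.06) lay below 2B (0.09).

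Smtn encodes smoothelin, an actin-associated protein of contractile smooth muscle. Its ratio was -0.22, -0.25 and 0.03 on arrays 2A, 2B and 2C, and -0.06, -0.47 and 0.26 on arrays 1A, 1B and 1C. Here the sets overlapped, and the swapped array was the highest of each set. The fitted ratio was -0.05 ± 0.08 (adjusted p = 0.693), and no single array left out brought a call. Smoothelin and calponin 1, both used as markers of contractile smooth muscle, therefore did not move alike. Over the 6 arrays weighted alike, Smtn lay 0.75 below Cnn1 on average (SD 0.41, n = 6), lower on 6 of 6 arrays.

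Myh9 encodes the heavy chain of non-muscle myosin IIA, the motor of stress fibres. Its ratio was -0.89, -0.96 and 0.56 on arrays 2A, 2B and 2C, and -0.16, -0.58 and 0.07 on arrays 1A, 1B and 1C. The 4 Cy5 arrays were all below 0, and both swapped arrays above it. The fitted ratio was -0.17 ± 0.14 (adjusted p = 0.463). On the 4 Cy5 arrays alone it was -0.65 ± 0.15 and passed (adjusted p = 0.0486), where the swapped arrays averaged 0.32. If the swapped columns had not been turned, Myh9 would lie below 0 on 6 of 6 arrays, at -0.48 ± 0.14 and still not called (adjusted p = 0.203).

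Myl6 encodes the essential light chain that smooth muscle and non-muscle myosin II share. Its ratio was 0.01, 0.14 and -0.22 on arrays 2A, 2B and 2C, and 1.10, 1.09 and 0.64 on arrays 1A, 1B and 1C. Set 2 thus showed values near 0 and set 1 values of 0.64 or more. The fitted ratio over both sets was 0.40 ± 0.22 (adjusted p = 0.278). Fitted by set it was -0.07 in set 2 and 0.87 in set 1, where single arrays ran from 0.64 to 1.10. With the set as a fixed replicate block the average of 0.40 passed (adjusted p = 0.0130), although set 2 ran from -0.22 to 0.14.

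The same difference between sets ran through most of the genes. Fhl1, Vcl, Cnn1, Cnn2 and Myl6 had all 3 ratios of set 2 below all 3 of set 1, which is 5 of 7 genes, against 13.8% of 6756 rows. As above, the choice of genes makes this count no test against that share. The difference of set 2 minus set 1 was -0.22 ± 0.11 for Fhl1, -0.61 ± 0.08 for Vcl, -0.39 ± 0.10 for Cnn1, -0.46 ± 0.09 for Cnn2 and -0.96 ± 0.09 for Myl6. None passed limma's test (adjusted p 0.0716 for Myl6, 0.0724 for Vcl, 0.0805 for Cnn2, 0.110 for Cnn1 and 0.307 for Fhl1), nor did any of the 6807 rows (0%), though 1616 rows had an unadjusted p under 0.05. For Smtn (-0.06 ± 0.15) and Myh9 (-0.21 ± 0.27) the difference was within 1 standard error. What differs between the sets is not given, so culture, animal, slide and day cannot be told apart.

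The dye of the transgenic RNA split the genes another way. The dye term, Cy5 over Cy3, was -0.48 ± 0.14 for Myh9 (adjusted p = 0.203) and -0.20 ± 0.08 for Smtn (adjusted p = 0.276), against 0.02 to 0.19 for the other 5 genes. None of the 7 genes passed, and 1 of 6807 rows (0.0147%) did, with 1242 rows at an unadjusted p under 0.05. Being below 0 on all 4 Cy5 arrays and above 0 on both swapped arrays was seen for these 2 genes and for 5.67% of the 6756 rows. The reverse signs were seen for a further 319 of the 6756 rows. For Fhl1 the Cy5 arrays averaged 1.66 and the swapped arrays 1.55, and for Vcl 1.17 and 1.13, and the dye term of both was within 1 standard error of 0.

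**Figure D2:**
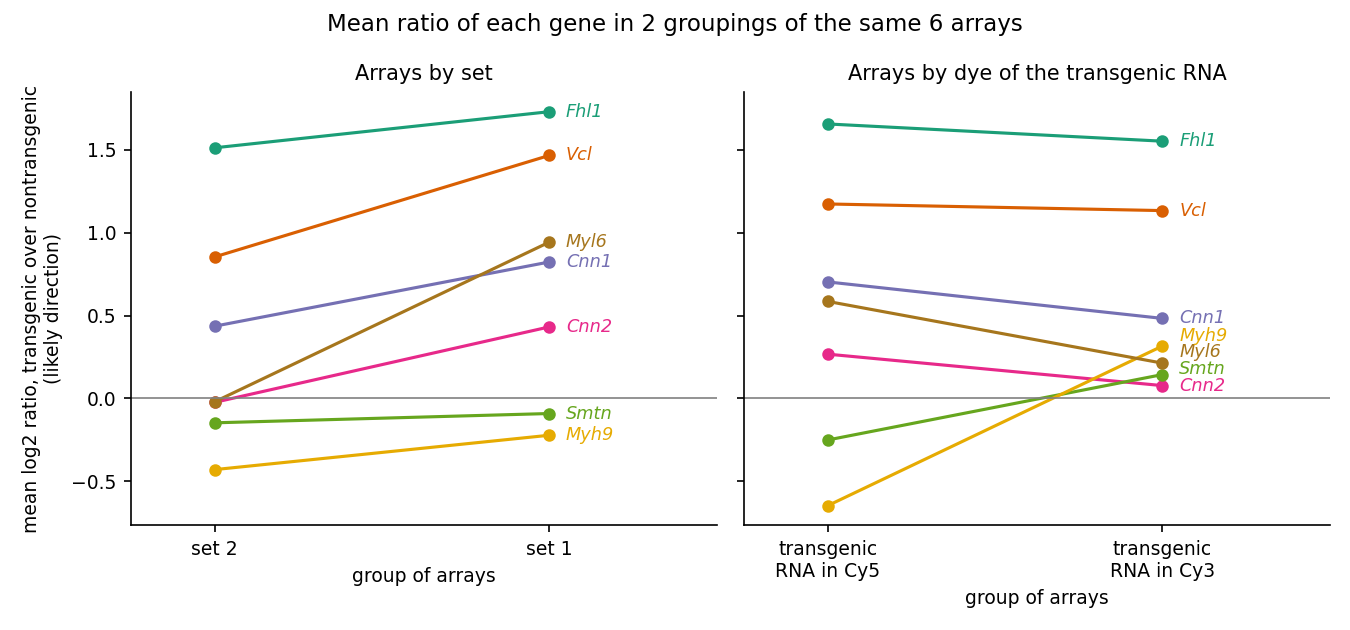
Mean log2 ratio (y axis, likely transgenic over nontransgenic) of each gene over the arrays of set 2 and set 1 (left) and over the 4 arrays with transgenic RNA in Cy5 and the 2 with it in Cy3 (right). Vcl, Cnn1, Cnn2 and Myl6 are lower in set 2 by 0.39 to 0.96, and Myh9 and Smtn alone lie on opposite sides of 0 in the 2 dye orientations.

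Related genes moved unequally within the same arrays. Ratios of 4 pairs, chosen by family or role, were compared by an exact two-sided sign-flip permutation test over the 6 arrays, whose smallest possible p is 0.0312. Each pair, Smtn and Cnn1 included, reached it, and with Benjamini-Hochberg adjustment over the 4 pairs it stays at p = 0.0312 (exact). The genes were chosen with earlier results of these data known, so this p adds no support of its own. Vcl lay above 0 and Tln1 below 0 on all 6 arrays, which alone fixes the p of that pair. The test treats the 6 arrays as independent, although arrays of a set may not be, and has no dye term. The mean differences weight the 6 arrays alike, so they can differ from differences of the fitted ratios. Calponin 1 exceeded calponin 2 by 0.43 ± 0.12 (SD), with 0.28 to 0.55 on single arrays, while both followed the sets. Fhl1 exceeded Fhl2, a related LIM protein, by 1.22 ± 0.25 (SD), and Vcl exceeded Tln1 by 1.60 ± 0.39 (SD).

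Talin 1 and paxillin, the partners of vinculin at adhesion plaques, fell where vinculin rose. Tln1, which binds integrin tails and recruits vinculin, had ratios of -0.33, -0.42 and -0.41 on arrays 2A, 2B and 2C, and -0.34, -0.54 and -0.57 on 1A, 1B and 1C. The fit gave -0.45 ± 0.07 (adjusted p = 0.0173), a level 1.37-fold lower, with 6 of 6 arrays below 0 for the mean and for each of its 3 probes. With limma's array weights Tln1 was not called (adjusted p = 0.0616). Pxn, an adaptor of the same plaques, was at -0.77 ± 0.09 (1.71-fold lower, adjusted p = 0.0103), with -0.29 to -1.12 on single arrays and all 6 below 0. For both genes the values of set 2 and set 1 overlapped, unlike those of vinculin. For Tln1 this holds for the mean of its probes only: each probe kept the sets apart, 1 with set 2 lower (-0.37 to -0.69, against -0.03 to -0.16 in set 1) and 2 with set 2 nearer to 0. The call of Pxn was lost without array 1C (adjusted p = 0.0516), and that of Tln1 without 1B, 2A, 2B or 1C (adjusted p 0.0542 to 0.0721) and with a random replicate block for the set (adjusted p = 0.0533). Of the 11 measured genes of plaques and dense bodies Vcl alone rose, Tln1 and Pxn fell and 8 were not called, where 4.03% of all rows rose and 3.09% fell; among the 8 were Lims1 (0.45 ± 0.13) and Itga5, an integrin subunit (-0.45 ± 0.11), both named after their values were seen.

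The LIM domain genes also went both ways. Besides Fhl1, Pdlim2, which joins a PDZ to a LIM domain, rose to 0.97 ± 0.13 (1.96-fold, adjusted p = 0.0138), with 0.73 to 1.53 on single arrays. Csrp2, a LIM protein of smooth muscle, fell by 0.51 ± 0.09 (adjusted p = 0.0276), with -0.10 to -0.81 on single arrays. Fhl2 was at 0.30 ± 0.09 (adjusted p = 0.106), higher on 5 of 6 arrays. The other 4 of the 8 measured genes were not called. Thus 2 of the 8 rose and 1 fell, where 4.03% of all rows rose and 3.09% fell. With limma's array weights neither Pdlim2 (adjusted p = 0.0821) nor Csrp2 (adjusted p = 0.0762) was called. Csrp2 was also not called without a dye term (adjusted p = 0.0542) or on the 4 Cy5 arrays alone (adjusted p = 0.0904). The call of Pdlim2 was lost without array 1C (adjusted p = 0.0689), and that of Csrp2 without any array but 2C (adjusted p 0.0524 to 0.113) and with the random replicate block (adjusted p = 0.0942).

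Among 11 genes of the thin filament and of actin binding Cnn1 was the 1 that passed. Cald1, the thin filament protein caldesmon, was at -0.12 ± 0.06 and Tpm1, a tropomyosin, at -0.16 ± 0.20. Tpm1 was positive on all 3 arrays of set 2 (0.20 to 0.33) and negative on all 3 of set 1 (-0.61 to -0.63), the opposite of the order in Cnn1, Cnn2 and Myl6. None of 3 thick filament genes, 4 genes of myosin phosphorylation and 6 of smooth muscle transcription passed. Srf, serum response factor itself, was at -0.42 ± 0.14 (adjusted p = 0.135), below 0 on 5 of 6 arrays and at 0.42 on 2C. Myl6b, a light chain related to Myl6 and also named after its value was seen, was at -0.97 ± 0.31, a value that rests on 1 of its 2 probes, which lay at the floor of -6.64 on array 1C. In all, 4 of the 43 measured genes rose and 3 fell, with a median of -0.015, beside 4.03% of all rows higher, 3.09% lower and a median of 0.0018. Of the 36 genes that are not among the 7, 1 rose and 3 fell, and their median was -0.026.

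**Figure D3:**
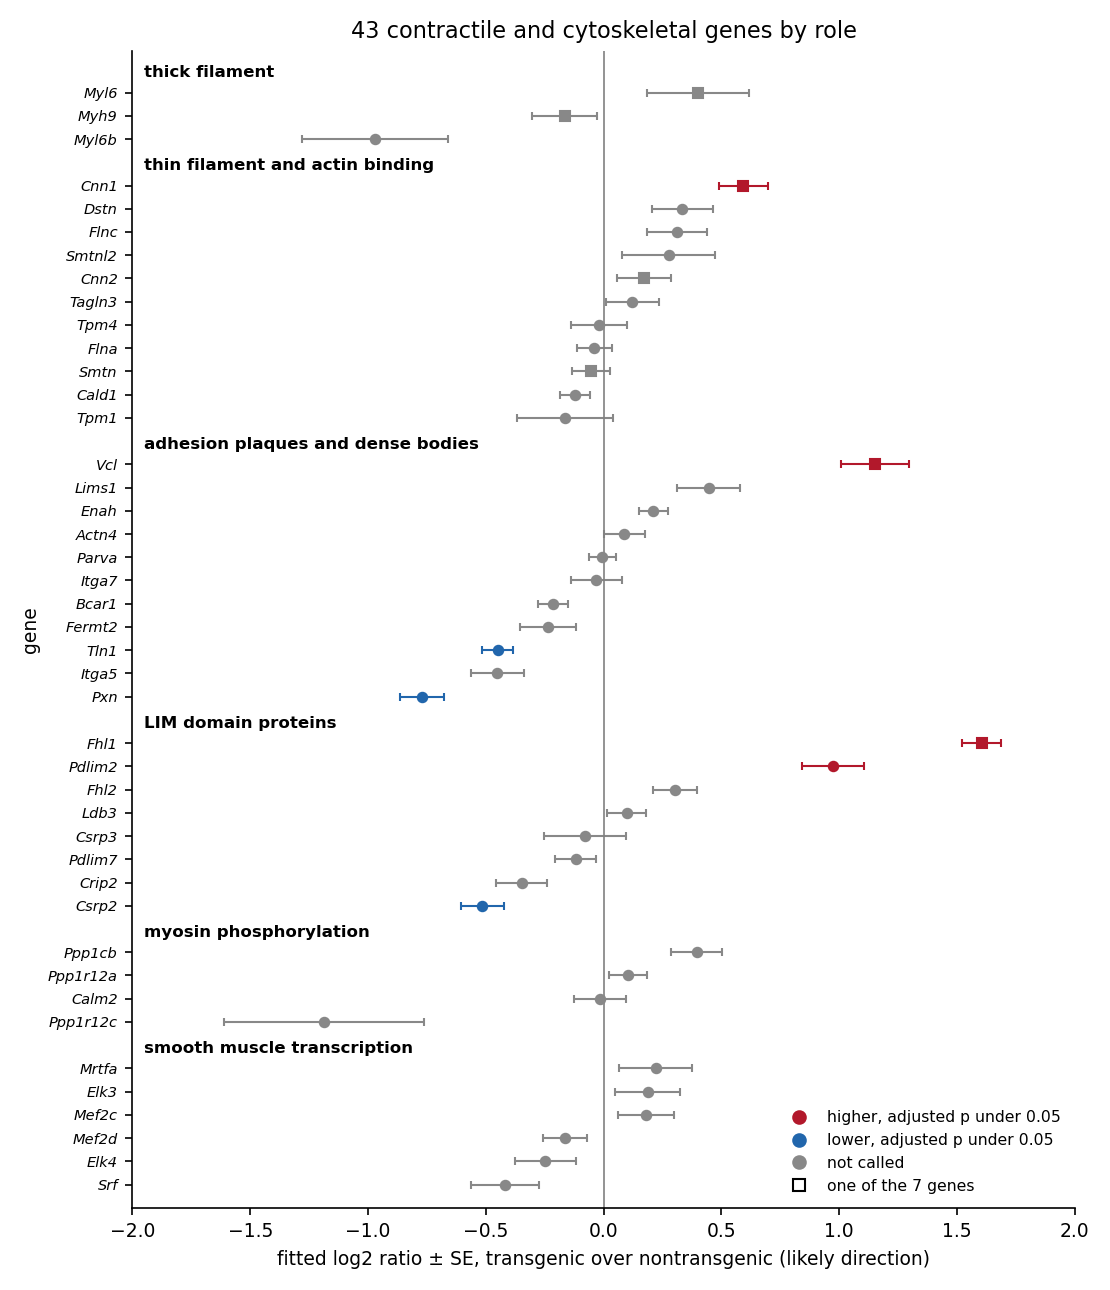
Fitted log2 ratio ± SE (x axis, likely transgenic over nontransgenic) of 43 contractile and cytoskeletal genes (y axis) grouped by role; squares mark the 7 genes and colours the calls. Fhl1, Vcl, Pdlim2 and Cnn1 rose, Tln1, Csrp2 and Pxn fell, and 36 genes were not called.

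Markers of other cells that a tracheal explant could hold are given beside these ratios; their part in the results was not tested. Of 7 skeletal and cardiac muscle genes, tissue in which Fhl1 is abundant, Mb, myoglobin, rose (0.29 ± 0.06, adjusted p = 0.0459), 6 were not called and the median was 0.07. The list's median ran from 0.05 to 0.18 on single arrays, against 1.45 to 1.90 for Fhl1. Of 5 fibroblast genes Thy1 (2.73 ± 0.21) and Mfap5 (0.81 ± 0.07) rose (median 0.70, and 0.29 to 0.99 on single arrays). The other 3 were not called, with Lum, lumican, at 0.70 ± 0.17, Pdgfra at -0.02 ± 0.14 and Col1a1, a collagen chain, at -1.21 ± 0.31 and below 0 on 5 of 6 arrays. Col11a1 fell of 6 cartilage genes (median -0.20), Cdh1 rose of 5 epithelial genes (median 0.07), and Uchl1 and L1cam fell of 6 neural genes (median -0.37). None of 7 endothelial genes (median -0.37) and 6 leukocyte genes (median -0.08) passed. The endothelial median is the ratio of Tek (-0.37 ± 1.03), which had values on 4 arrays only, from -4.585 on 2A to 0.93 on 1C. Of the smooth muscle markers 3 were measured, Cnn1, Smtn and Cald1, and their median was -0.05. Beside the counts of all these lists, 4.03% of all rows were called higher and 3.09% lower.

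Genes whose ratios lay closest to those of a called gene over the 6 arrays were named by the smallest root mean square difference among 5614 genes with 6 values. For Fhl1 they were Rasl11a, a Ras-like GTPase (0.19), Tnc, tenascin C (0.26), and Tgfbr3, the co-receptor betaglycan (0.29). For Vcl they were Lgals3, galectin 3 (0.15), Prnp, the prion protein (0.17), and Rab9, a GTPase of late endosomes (0.18). For Cnn1 they were Lamp1, a lysosomal membrane protein (0.09), Nuak1, a kinase (0.10), and Nfix, a transcription factor (0.11). All but Nfix were called, but genes picked for closeness to a called gene are likely to be called too. None of the 9 belongs to the contractile and cytoskeletal list, of which 43 genes were measured, few beside the 5614 compared.

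**Figure D4:**
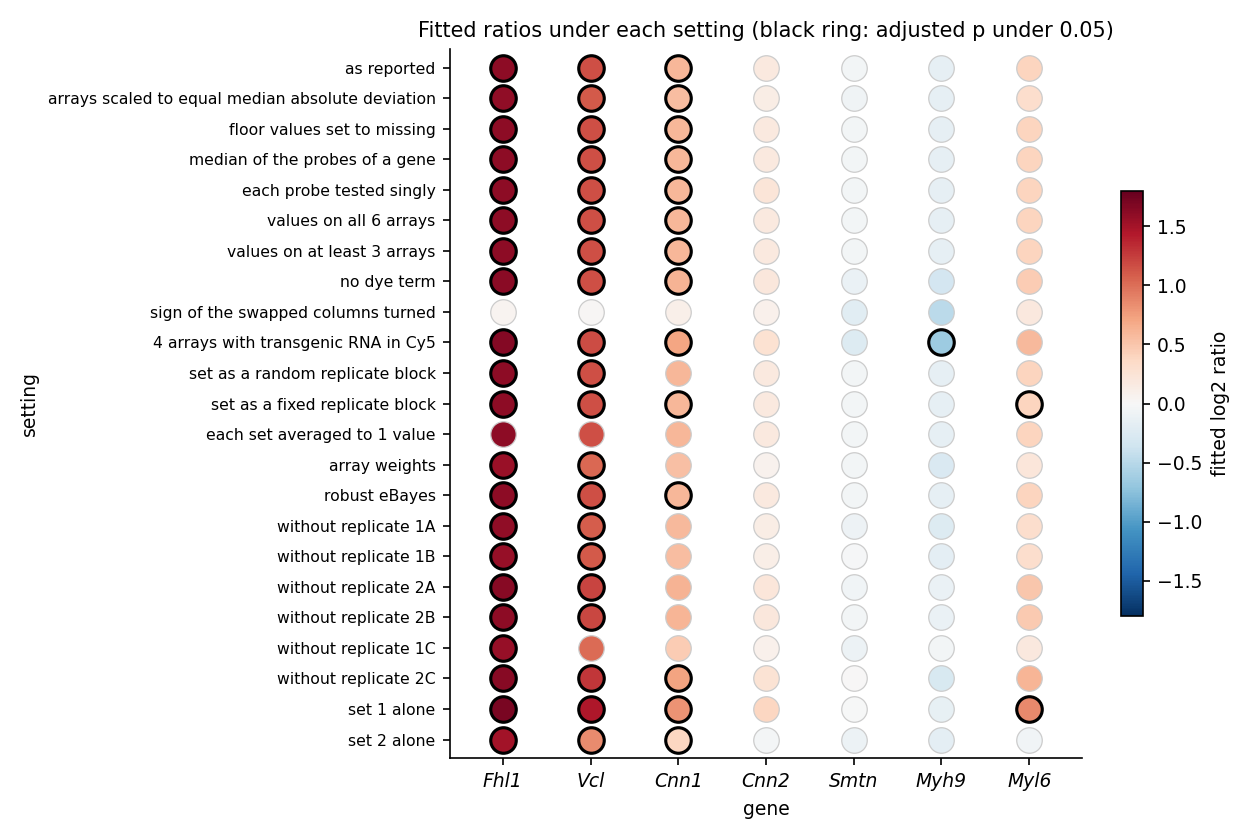
Fitted log2 ratio (colour) of each gene (x axis) as reported and under 22 other settings (y axis); a black ring marks an adjusted p under 0.05. Fhl1 was called under 20 of the 22, Vcl under 19 and Cnn1 under 13, Myh9 under 1, Myl6 under 2, and Cnn2 and Smtn under 0.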

How the data were processed

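Each array compared transgenic with nontransgenic RNA on a printed slide, per the labels' protocols. The authors deposited 1 log2 ratio per probe and array; for the scanner, background correction, normalization and direction nothing is stated in the labels or files. Those deposited log2 values had array medians of -0.0012 to 0.0007, so they were already centred, and the lowest value, -6.64, is a floor at which 0 to 63 probes lay per array. The platform annotation gave 7540 of 8734 probes 1 symbol, 14 several and 1180 none; 7493 matched the GRCm38.p6 gene table by Entrez ID.

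Where several probes carry 1 symbol their mean per array was used, and rows needed values on at least 4 arrays and both orientations, which left 6807. limma 3.58.1 (R 4.3.3; lmFit, eBayes) fitted a transgenic and a dye coefficient, so that each swapped array has 0.25 of the weight and each other array 0.125. A further term gave set 2 minus set 1. The fit was tested on simulated data with independent arrays of equal scatter. The real arrays fall into sets and 1C scattered most, so the error rate of these calls was not checked. Single-set fits, added after seeing the data, use 3 arrays. The dye coefficient fits the swapped array exactly there, so their spread comes from the set's Cy5 arrays and limma's pooling over rows. Signal strength was not analysed here, and the small number of arrays limits precision. Named were the 7 genes, list genes and markers past the threshold, some preset reference genes, and for each called gene the 3 closest genes. The genes and lists were chosen with earlier results of these data known. Figures used Python 3.11.15 and matplotlib 3.10.9.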

Additional observations from a re-analysis of the deposited data

Results flagged for a closer look

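Myh9 and Smtn had opposite signs in the 2 dye orientations on every array. Myh9 averaged -0.65 on the 4 arrays whose transgenic RNA carried Cy5 and 0.32 on the 2 swapped arrays, and Smtn averaged -0.25 and 0.14. The dye term of the limma fit tests this difference and passed for neither gene (adjusted p = 0.203 and 0.276).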

How the results depend on the processing

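Fhl1, Vcl and Cnn1 had a ratio above 0 under all 22 alternatives. Several alternatives leave the ratio itself unchanged, and each gene was above 0 on every array, so the shared sign is largely fixed. With the swapped columns turned the ratio was near 0, at 0.05 ± 0.08, 0.02 ± 0.14 and 0.11 ± 0.10. There, 0 of the 7 genes, 0 of the wider list and 1 of all rows were called, and Tln1 (0.041), Pxn (0.21) and Csrp2 (0.19) changed sign; the term tested there is the dye term of the reported fit. With each set averaged to 1 value, 0 of the 7, 0 of the list and 0 of 6772 rows passed by limma, with 728 rows at an unadjusted p under 0.05. A random replicate block for the set, with a correlation estimated at 0.295, called 2 of the 7, 4 of the list and 197 rows, a fixed replicate block 4, 13 and 1168, array weights 2, 3 and 171, and the 4 Cy5 arrays 4, 13 and 1071. Set 1 alone gave 11 of the list and 1057 rows, and set 2 alone 11 and 907; Cnn2 (-0.039) and Myl6 (-0.070) were negative in set 2. With 1 array left out, 1 to 3 of the 7 genes, 1 to 12 of the list and 169 to 1689 rows were called; the fewest rows came without 2A, the lowest counts of the 7 and the list came without 1C, the most rows without 2C, and Smtn ranged from -0.11 to 0.0028. For these changes the cause was not tested. With 1C or 2C left out, the dye term fits the other swapped array exactly, so that array adds nothing to the error. Scaling, the floor, probe medians, single probes, filters, no dye term and robust variances called the same 3 genes. The 4 differences between related genes kept their sign and moved by less than 1 SD under the 8 alternatives run, which did not include turned columns. Each difference had 1 sign on every array, so leaving out 1 array could neither turn it nor move it by 1 SD. This is therefore no check of the differences. The labels do not say that a set number marks a shared animal or day. Signal over background is unknown.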

Other observations

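The split by set was also seen beyond the 7 genes, in both directions; the genes named here were chosen after their values were seen. Of the 36 other contractile and cytoskeletal genes, 10 had all ratios of set 2 below all of set 1, among them Dstn, the actin-severing protein destrin, Flnc, filamin C, and Ppp1cb, a catalytic subunit of myosin phosphatase. Dstn had -0.04 to 0.24 in set 2 and 0.48 to 0.68 in set 1, and Ppp1cb had 0.17 to 0.25 in set 2 and 0.49 to 0.71 in set 1. Tpm1, Flna, filamin A, and Pdlim7 ran the other way. Over all 6756 rows with 6 values, 931 had set 2 below set 1 and 770 had it above.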
